A study of Macaca mulatta with 49 samples.

Results

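CD8 central memory T cells (CD8 TCM) of 6 rhesus macaques were compared before and after an antibody against interleukin 15 (IL-15). All samples labelled as sorted CD8 TCM of animals given the Anti-IL15 Ab were taken, which gave 12 of the 48 biological samples of the series (49 arrays, since 1 control sample was measured on 2), 1 before and 1 after treatment in each animal. The series holds 8 groups of 6 samples: sorted CD8 or CD4 TCM from blood mononuclear cells, before or after Anti-IL15 Ab or an IgG1 Control Ab, in 12 animals. The CD8 TCM of the 6 control animals and the CD4 TCM of the 6 anti-IL-15 animals serve below as comparisons. The labels used here give no dose, no time since treatment, and no age or sex of the animals. RNA was measured on Illumina BeadChips made for human genes, so a probe that differs from the macaque sequence can read low, and a gene without signal is not shown to be silent. Values are log2 intensities after background correction and quantile normalization. A change is the value after minus the value before treatment in the same animal.

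IL-15 is a cytokine of the common gamma chain family, made by myeloid and stromal cells and shown to T cells on the IL-15 receptor alpha chain of the producing cell. The responding cell carries the IL-2 receptor beta chain and the common gamma chain, which signal through JAK1, JAK3 and STAT5 and through PI3K and MAP kinases. IL-15 is known, in NK (natural killer) cells and in CD8 memory cells, to support survival, slow division and the making of killing granule proteins. TCM are memory cells that keep lymph node homing receptors such as CCR7 and hold less granule protein than effector memory cells.

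The sorted cells carried RNA of CD8 T cells. CD8A had a mean log2 intensity of 12.85 before and 13.03 after treatment, and CD3D of 13.15 and 13.25. CD4 was detected on none of the 24 CD8 arrays, nor were the NK marker NCR1 and the platelet marker PF4. The CD4 probe was also detected on only 1 of the 24 CD4 TCM samples. Its lack of signal therefore does not tell the cell types apart. CCR7 was detected on every CD8 array, with means of 8.09 before and 7.96 after anti-IL-15, and its change of -0.12 ± 0.22 (moderated standard error, SE) did not pass the test described below (adjusted p = 0.908, limma). RNA of other cells was present too: the monocyte marker CD14 was detected in all 12 samples, while S100A8 was detected in none. HBB (haemoglobin beta) ran from 5.72 to 14.03 before treatment, so red cell RNA differed widely between samples. Between 11298 and 13720 of 47230 probes were detected on a CD8 array. The array of animal 4 after anti-IL-15 had the lowest median correlation with the other CD8 arrays (r = 0.954 across probes, which are not replicates). The next lowest was that of animal 1 before anti-IL-15 (r = 0.962).

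Among the genes higher after treatment than before were 3 of the cytotoxic granule, the interferon-inducible IFI27, the cytokine signalling inhibitor SOCS3 and a pair of growth arrest genes. Of 8604 genes tested, 13 rose (0.151%) and 2 fell (0.0232%) at an adjusted p below 0.05. The test was limma with the animal as a block, over the 24 CD8 samples, with Benjamini-Hochberg adjustment over all genes. At an unadjusted p below 0.05, 385 genes were higher (4.47%) and 430 lower (5%). A gene was higher in 6 of 6 animals in 184 cases (2.14%) and lower in 6 of 6 in 255 (2.96%). The samples before and after treatment did not overlap for 16 genes that were higher after treatment (0.186%) and 13 that were lower (0.151%). Over all genes, 3940 had a change above 0 and 4664 one below 0. The median change over all genes was -0.02, and it lay between -0.13 in animal 4 and 0.06 in animal 1.

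The control animals were sampled in the same way. After IgG1, 0 of 8604 genes passed in limma (0%), 603 had an unadjusted p below 0.05, and 163 (1.89%) were higher and 268 (3.11%) lower in 6 of 6 animals. For the difference between the antibodies 0 genes passed (0%), with 660 at an unadjusted p below 0.05. The 15 genes are thus changes over time in treated animals, and for none of them was the change shown to differ from that of the controls. The count of 15 also depended on single animals: with treated animal 1 left out 2 genes passed, with treated animal 2 left out 1, and with treated animal 3, 4 or 5 left out 4. Leaving out control animal 1, 2 or 3 gave 4 genes, and leaving out control animal 4 gave 3. No gene of the 15 turned direction in any fit that left out an animal.

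**Figure D1:**
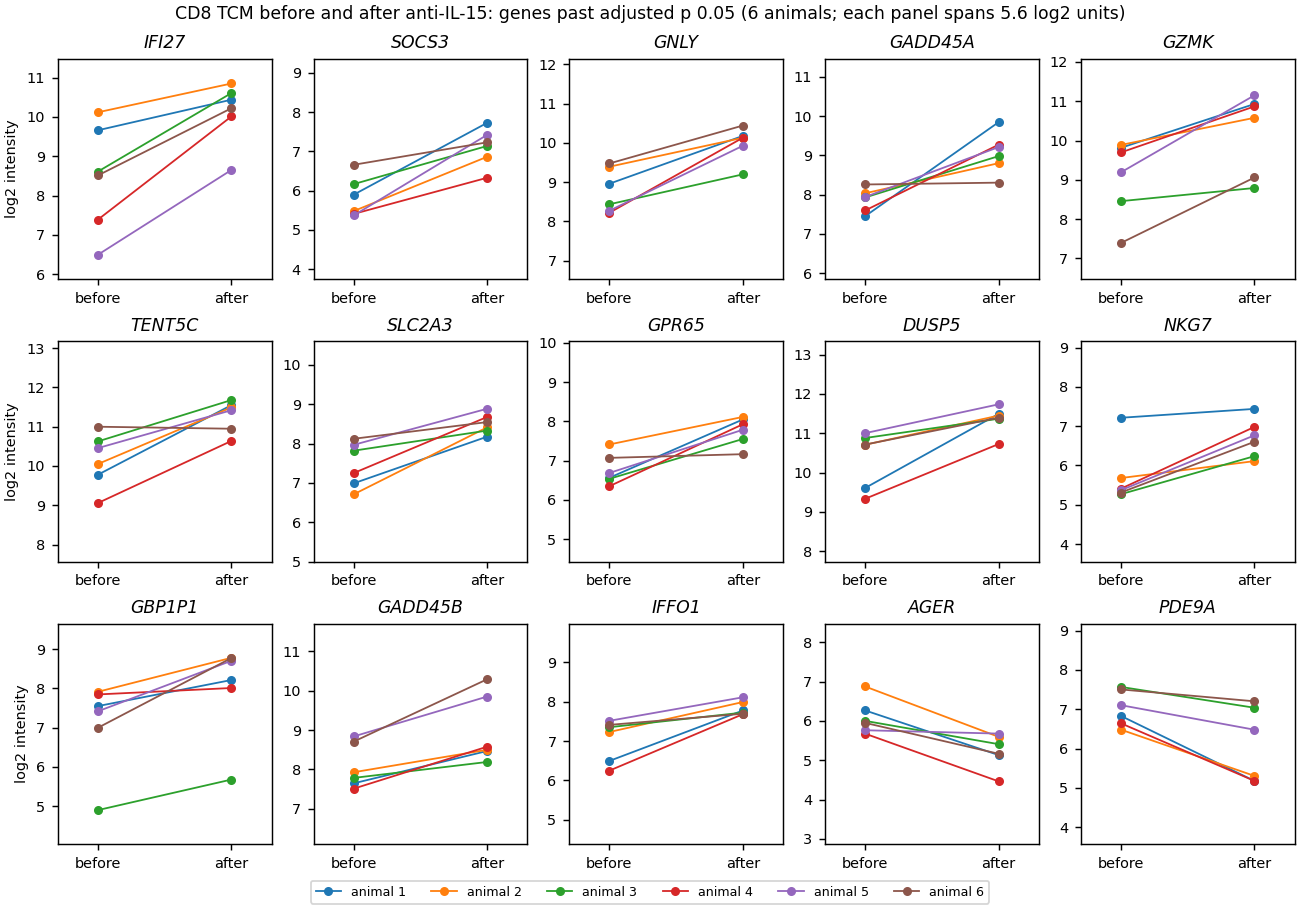
Log2 intensity of the 15 genes past the threshold, before (left) and after (right) anti-IL-15 in CD8 TCM; each line is 1 animal and every panel spans the same log2 range. All 6 lines run upward for 12 of the 13 genes that rose, the line of animal 6 for TENT5C runs slightly downward, and all 6 lines run downward for AGER and PDE9A.

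The interferon-inducible gene IFI27, which encodes a small mitochondrial protein, had the largest change of the 15. Before treatment its lowest, median and highest values were 6.49, 8.56 and 10.12, and after treatment 8.65, 10.33 and 10.85. The 2 groups overlapped, because animals began far apart, but each animal was higher after treatment, by 0.73 in animal 2 up to 2.63 in animal 4. IFI27 rose by 1.67 ± 0.22 (SE, limma), or 3.18-fold (adjusted p = 0.00859), and passed in each of 12 fits that left out 1 animal. In the controls it had a change of 0.23, and the difference between antibodies was 1.44 ± 0.32 (adjusted p = 0.597, limma).

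SOCS3, a feedback inhibitor of JAK and STAT signalling, was near 5.69 (median) before treatment, with a range of 5.37 to 6.66. Afterwards its median was 7.18 and its range 6.33 to 7.73, so that the lowest sample after treatment lay below the highest before. It rose by 1.29 ± 0.20 (2.44-fold, adjusted p = 0.0226, limma) and passed in 9 of 12 fits without 1 animal, but its change was 0.67 with the deposited table. A second, dimmer SOCS3 probe, detected in 13 of 24 CD8 samples, had a change of 0.03. Of 15 tested cytokine feedback inhibitors (17 listed), SOCS3 alone passed. SOCS1, its close relative, had a median of 8.36 before and 9.30 after and did not overlap between the groups, with a change of 0.98 ± 0.20 (adjusted p = 0.0585, limma). The phosphatase PTPN2, which acts on JAK1 and JAK3, was higher in 6 of 6 animals with a change of 0.50 ± 0.19 (adjusted p = 0.411, limma). The median of the list was 0.01 against -0.02 over all genes, and CISH, a STAT5 target, had a change of -0.25.

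Cytotoxic granule genes held 3 of the 13 that rose. Of 23 listed genes 13 were tested, 3 passed as higher and 6 were higher in 6 of 6 animals. Over all genes tested these shares were 0.151% and 2.14%. A change above 0 was found for 12 of the 13, against 3940 of 8604 over all genes. The median change of the 13 was 0.44, against -0.02 over all genes, 0.23 after IgG1 and 0.15 in CD4 TCM. By animal the median of the 13 ran from 0.27 in animal 3 to 0.77 in animal 5. The summed linear intensity of the 13 genes was higher after treatment in each animal, by a ratio of 1.20 in animal 2 up to 1.91 in animal 5. In sorted cell populations, more cells of a kind and more RNA in each cell cannot be told apart.

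GNLY, or granulysin, a membrane-damaging granule protein of killer lymphocytes, ran from 8.22 to 9.47 (median 8.70) before and from 9.20 to 10.44 (median 10.13) after treatment. It rose by 1.21 ± 0.21 (2.31-fold, adjusted p = 0.0429, limma), with slight overlap of the groups. Of all genes that rose, GNLY had the largest change in the controls, given further below. GZMK, or granzyme K, the granule protease most typical of early memory CD8 cells, ran from 7.39 to 9.89 (median 9.44) and then from 8.79 to 11.15 (median 10.72). It rose by 1.16 ± 0.22 (2.23-fold, adjusted p = 0.0475, limma) in 6 of 6 animals, against -0.07 in the controls, where it was higher in 1 of 6. NKG7, a granule membrane protein, ran from 5.27 to 7.21 (median 5.39) and then from 6.11 to 7.44 (median 6.69). It rose by 0.98 ± 0.19 (1.97-fold, adjusted p = 0.0475, limma), and animal 1, which began highest, had the smallest change, 0.23. Leaving out 1 animal kept GNLY past the threshold in 3 of 12 fits, GZMK in 2 and NKG7 in 1. Without animal 4, whose array after treatment had the lowest correlation with the rest, their changes were 1.07, 1.15 and 0.86. None of these 3 passed then.

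Further granule genes had large changes that did not pass. GZMH, granzyme H, had medians of 7.53 and 8.68 and did not overlap between the groups; its change was 1.47 ± 0.35 (adjusted p = 0.119, limma), the largest after IFI27 among genes higher in 6 of 6 animals. In the controls GZMH had a change of 0.55 but was higher in 2 of 6 animals. GZMA, granzyme A, was higher in 6 of 6 with a change of 1.14 ± 0.33 (adjusted p = 0.228, limma), from 0.12 in animal 3 to 2.13 in animal 6. SRGN, serglycin, the proteoglycan that packs granule proteases, had a change of 0.43 ± 0.14 (adjusted p = 0.339, limma). Granzyme genes are close in sequence, and a human probe may read more than 1 of them in macaque RNA.

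NK receptor genes, several of which cytotoxic T cells also use, had a similar median. Of 20 listed genes 9 were tested and 1 passed (GNLY, which is also in the granule list). Of the 9, 3 were higher in 6 of 6 animals, against 2.14% of all genes tested. The median change was 0.56 against 0.06 after IgG1. This median was 0.33 without animal 6, 0.23 with the deposited table and 0.04 with no filter on dim probes. KLRD1 encodes CD94, the partner chain of the NKG2 receptors. It ran from 4.92 to 8.06 (median 6.55) before and from 7.12 to 8.43 (median 7.32) after treatment, with a change of 1.09 ± 0.25 (adjusted p = 0.111, limma). KLRF1, an activating NK receptor, was detected in 0 of 6 samples before and 3 of 6 after, so that the samples after treatment were at least 1.09-fold brighter (adjusted p = 0.135, limma); it was higher in 6 of 6 animals. KLRG1, an inhibitory receptor of differentiated T and NK cells, had a change of 0.79 ± 0.24 (adjusted p = 0.282, limma). NCAM1, listed here as an NK marker, had a change of -0.16 and was the only 1 of the 9 tested genes below 0. It was detected in 4 samples before and 3 after. FCGR3A had a change of 0.01, and its mean was much alike in all CD8 (8.27) and all CD4 samples (8.35). NCR1 was not detected. TYROBP had means of 6.02 before and 6.64 after treatment. KLRC1, detected in 1 sample before and 4 after, had means of 4.94 and 5.18. The summed intensity of the 9 genes ran from 959 to 1523 before and from 1439 to 2714 after treatment. Whether NK cells had a part in these values was not tested.

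**Figure D2:**
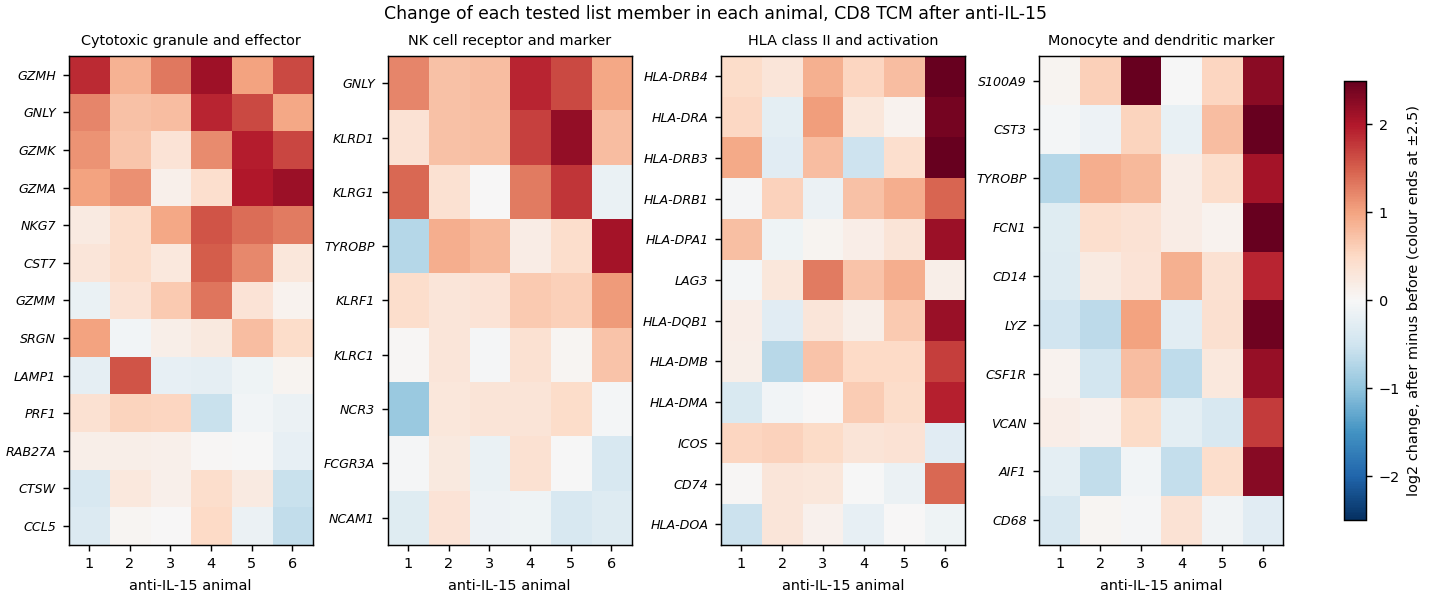
Change of each tested gene of 4 lists (rows) in each anti-IL-15 animal (columns), CD8 TCM; red is higher and blue lower after treatment on the log2 scale. GZMH, GNLY and GZMK are red in all 6 animals, while most HLA class II and monocyte genes are strongly red in animal 6 alone.

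Transcription factors of effector differentiation had a median change of 0.17 (13 of 18 listed genes tested, with 0.13 after IgG1 and 0.28 without animal 6). Of the 13, 0 passed in limma, and 5 had an unadjusted p below 0.05, each of them higher, against 4.47% of all genes tested. BHLHE40, a repressor that promotes tissue residency and cytokine output in T cells, ran from 7.33 to 9.04 (median 8.28) and then from 8.66 to 9.74 (median 9.24). It was higher in 6 of 6 animals with a change of 1.06 ± 0.22 (adjusted p = 0.0738, limma). NFIL3, a basic leucine zipper factor, had a change of 0.83 ± 0.18 (adjusted p = 0.0955, limma) and PRDM1, the factor Blimp-1 of terminal differentiation, one of 0.75 ± 0.18 (adjusted p = 0.127, limma), both higher in 6 of 6. ID2, which favours effector over memory fate, was higher in 6 of 6 with a smaller change of 0.38. TBX21, encoding T-bet, had the same change after anti-IL-15 as after IgG1, 0.38. Memory and homing genes had a median change of -0.07 over 15 of 21 listed genes, with 0 past the threshold. Of the 15, 1 had an unadjusted p below 0.05, against 815 of 8604 over all genes. FOXO1, which maintains quiescence and homing receptors, was lower in 6 of 6 animals by a small amount (change -0.24 ± 0.13, adjusted p = 0.567, limma). CD28, the costimulatory receptor that TCM keep, was higher in 6 of 6 (change 0.35 ± 0.16, adjusted p = 0.503, limma). It was dim, detected in 2 samples before and 5 after.

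The growth arrest genes GADD45A and GADD45B both rose. GADD45A, a stress sensor that binds CDK1 and cyclin B and activates p38 and JNK pathways, ran from 7.45 to 8.26 (median 7.93) before and from 8.31 to 9.85 (median 9.10) after treatment. The groups did not overlap, and GADD45A rose by 1.20 ± 0.23 (2.30-fold, adjusted p = 0.0475, limma), from 0.05 in animal 6 to 2.39 in animal 1. Its second probe, detected in 22 of 24 samples, had a change of 1.81. GADD45A passed in 2 of 12 fits without 1 animal. GADD45B, induced by NF-kappa-B and cytokines, ran from 7.51 to 8.84 (median 7.85) and then from 8.19 to 10.29 (median 8.54). It rose by 0.91 ± 0.14 (1.88-fold, adjusted p = 0.0226, limma) and passed in 8 of 12 fits without 1 animal. CDKN1A, the cell cycle inhibitor p21, was higher in 6 of 6 with a change of 0.93 ± 0.20 (adjusted p = 0.0782, limma). Over 11 tested genes of the p53 and growth arrest list (23 listed) the median was 0.13, or 0.08 without animal 6, 2 passed, and XPC, a DNA repair factor and p53 target, was lower in 6 of 6 animals (change -0.43 ± 0.11, adjusted p = 0.156, limma). Cell cycle genes had a median change of 0.002 over 29 of 41 listed genes, with 0 past the threshold. Of the 29, 3 were higher at an unadjusted p below 0.05, against 4.47% of all genes tested. CDK1, detected in 2 samples before and 4 after, was higher in 6 of 6 animals (change 0.36 ± 0.15, adjusted p = 0.45, limma).

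SLC2A3, the high-affinity glucose transporter GLUT3, did not overlap between the groups. Its range was 6.71 to 8.12 (median 7.53) before and 8.18 to 8.89 (median 8.48) after. It rose by 1.03 ± 0.17 (2.04-fold, adjusted p = 0.0263, limma), with a change of -0.03 in the controls and a difference between antibodies of 1.06 ± 0.24 (adjusted p = 0.597, limma). SLC2A3 passed in 7 of 12 fits without 1 animal. It was the 1 gene that passed among 21 tested glycolysis and transport genes (26 listed), whose median was 0.05. LDHA, the lactate dehydrogenase chain of active glycolysis, was higher in 6 of 6 animals (change 0.54 ± 0.13, adjusted p = 0.135, limma), as was PDK1, which holds pyruvate back from mitochondria (0.36 ± 0.18, adjusted p = 0.546, limma). PFKL and ALDOC, enzymes of glycolysis, had changes of -0.53 and -0.33. Mitochondrial respiratory chain genes had a median of 0.06, below the 0.14 of the controls, and 0 of 52 passed in limma. Of the 52, 3 were higher at an unadjusted p below 0.05, against 4.47% of all genes tested. A change above 0 was found for 44 of the 52, against 3940 of 8604 over all genes.

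DUSP5, a nuclear phosphatase that switches off ERK, ran from 9.33 to 11.00 (median 10.71) and then from 10.73 to 11.74 (median 11.42). It rose by 0.99 ± 0.19 (1.98-fold, adjusted p = 0.0475, limma) and passed in 1 of 12 fits without 1 animal. The probe of DUSP5P1, annotated as a pseudogene of DUSP5, had a change of 1.06 (adjusted p = 0.0667, limma), and because of the likeness of the sequences these may be readings of the same RNA. No other gene passed among the 20 tested of the MAP kinase list (35 listed), whose median was -0.003. DUSP2, another nuclear phosphatase, had a change of 0.44, and 0.34 in the controls. GPR65, a proton-sensing receptor of lymphocytes, ran from 6.35 to 7.41 (median 6.63) and then from 7.16 to 8.11 (median 7.86), and rose by 1.00 ± 0.18 (1.99-fold, adjusted p = 0.0475, limma). Its dimmer probe, detected in 7 of 24 samples, had a change of -0.11, and GPR65 passed in 2 of 12 fits without 1 animal.

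TENT5C, a poly(A) polymerase that stabilises messages of secreted proteins, was among the brighter genes, at 9.06 to 11.00 (median 10.25) before and 10.64 to 11.68 (median 11.45) after. It rose by 1.13 ± 0.20 (2.18-fold, adjusted p = 0.0429, limma) in 5 of 6 animals, and animal 6 had a change of -0.05. IFFO1, a nuclear intermediate filament protein, was at 6.25 to 7.52 (median 7.29) and then, without overlap, at 7.68 to 8.11 (median 7.75). It rose by 0.79 ± 0.15 (1.73-fold, adjusted p = 0.0475, limma). Animals 1 and 4, the lowest before treatment, had the largest changes of IFFO1, 1.28 and 1.44. Without 1 animal TENT5C passed in 3 of 12 fits and IFFO1 in 1.

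The 2 genes that fell were a phosphodiesterase and a receptor. PDE9A, which breaks down cyclic GMP, ran from 6.48 to 7.57 (median 6.97) before and from 5.17 to 7.20 (median 5.89) after treatment. It fell by 0.96 ± 0.19 on the log2 scale (1.94-fold, adjusted p = 0.0475, limma), against a change of 0.03 in the controls. AGER, the receptor for advanced glycation end products, ran from 5.68 to 6.88 (median 5.98) and then from 4.46 to 5.68 (median 5.29), and was detected in 6 samples before and 4 after. It fell by 0.85 ± 0.16 (1.80-fold, adjusted p = 0.0475, limma), against 0.08 in the controls. A second AGER probe, detected in 21 of 24 samples, had a change of -0.47. Both genes passed in 1 of 12 fits that left out an animal.

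The 15 largest changes among genes lower in 6 of 6 animals ran from -0.96 for PDE9A to -0.58 for ZNF827. UAP1L1, an enzyme-like protein of nucleotide sugar metabolism, did not overlap between the groups (6.23 to 6.56 before, 4.57 to 6.03 after), with a change of -0.86 ± 0.22 (adjusted p = 0.173, limma). CACUL1, a CDK2-associated cullin protein, had the lowest adjusted p of the 13 of these that did not pass (change -0.77 ± 0.15, adjusted p = 0.0585, limma) and was detected in 5 samples before and 1 after. In the controls CACUL1 had a change of -0.34. FXYD1, a regulator of the sodium pump, was detected in 6 and 1, CEP95, a centrosomal protein, in 5 and 2, and TASOR2 in 4 and 0. For TASOR2, not well above background in any sample after treatment, the samples before were at least 1.21-fold brighter (adjusted p = 0.113, limma). RAB9B, a small GTPase of endosomes, was detected in all 12 samples and had a change of -0.69, but -0.40 in the controls. TCL1B had a change of -0.74 and 0.21 in the controls. The changes of CORO6 (-0.62) and SH2D3C (-0.59) were largest in animal 4, at -2.10 and -1.92, while the other 5 animals lay between -0.59 and -0.15. The array of animal 4 after treatment was the one with the lowest correlation with the rest. The remaining members were SLC9A3-OT1 (-0.66), ZNF213 (-0.60) and OR9A4 (-0.59).

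Interferon genes apart from IFI27 had modest changes. Of 42 listed type I interferon response genes 26 were tested and 1 passed (IFI27). A change above 0 was found for 21 of the 26, against 3940 of 8604 over all genes. The median of the 26 was 0.16, against 0.02 after IgG1 and 0.16 in CD4 TCM. IFI6, an antiviral membrane protein, was higher in 6 of 6 animals (change 0.63 ± 0.16, adjusted p = 0.158, limma). ISG15, a ubiquitin-like modifier, had a change of 0.70 ± 0.23 (adjusted p = 0.32, limma) but 0.45 in the controls. Animals differed: the summed linear intensity of the 26 genes had a ratio of 1.83 in animal 4 and 0.967 in animal 1.

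Of genes under IRF1 and interferon gamma, 19 of 25 were tested. A single one passed, and 5 were higher in 6 of 6 animals, against 2.14% of all genes tested. A change above 0 was found for 18 of the 19, against 3940 of 8604 over all genes. The median of the 19 was 0.23, against -0.05 after IgG1. Without animal 1 this median was 0.14, and with the deposited table it was also 0.14. GBP1P1, annotated as a pseudogene of the antimicrobial GTPase gene GBP1, ran from 4.90 to 7.91 (median 7.48) and then from 5.68 to 8.78 (median 8.46). It rose by 0.92 ± 0.17 (1.90-fold, adjusted p = 0.0475, limma) and passed in 1 of 12 fits without 1 animal. GBP1 itself had a change of 0.80 ± 0.17 (adjusted p = 0.0906, limma), and its probe may share sequence with that of GBP1P1. The summed linear intensity of the 19 genes did not overlap, at 26809 to 28694 before and 29671 to 35145 after treatment. Such a sum is set mostly by the brightest genes of the list, and it was not taken in the controls. Animal 3 was lowest for GBP1P1 at both times, at 4.90 and 5.68. IRF1, the transcription factor, had a change of 0.66 ± 0.16 and WARS1, an interferon-inducible tRNA synthetase, one of 0.63 ± 0.16, both higher in 6 of 6 (adjusted p = 0.135 and adjusted p = 0.162, limma).

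Proteasome genes had small changes, from -0.18 to 0.57. Of 36 listed 31 were tested, and 3 were higher in 6 of 6 animals, as were 3 in the controls. Over all genes tested these shares were 2.14% and 1.89%. A change above 0 was found for 27 of the 31, against 3940 of 8604 over all genes. The median of the 31 was 0.18 against 0.04 after IgG1 and 0.05 in CD4 TCM. By animal this median stayed between 0.09 and 0.24. The summed intensity had ratios of 1.08 to 1.25 and was higher after treatment in each animal. None passed in limma, and 5 had an unadjusted p below 0.05, each higher, against 4.47% of all genes tested. PSME2, a subunit of the interferon-inducible activator PA28, ran from 9.57 to 10.26 (median 9.86) and then from 10.08 to 10.75 (median 10.37), with a change of 0.53 ± 0.12 (adjusted p = 0.0955, limma). PSMB9, a catalytic subunit of the immunoproteasome, went without overlap from 10.30 to 10.63 (median 10.50) to 10.72 to 11.54 (median 11.02), with a change of 0.57 ± 0.13 (adjusted p = 0.119, limma). PSMB10, another such subunit, had a change of 0.37 ± 0.14 (adjusted p = 0.416, limma).

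HLA class II genes had a high median change that rested on animal 6. Of 26 listed class II and activation or inhibitory receptor genes 12 were tested, with 0 past the threshold in limma. Of the 12, 7 were higher at an unadjusted p below 0.05, against 4.47% of all genes tested, and 11 had a change above 0. The median was 0.54 against -0.23 after IgG1. By animal the median was 0.11 to 0.44 in animals 1 to 5 and 1.84 in animal 6, and without animal 6 it was 0.25. HLA-DRA, the alpha chain of HLA-DR molecules, had a change of 0.68 ± 0.30 (adjusted p = 0.503, limma), with 2.40 in animal 6. HLA-DRB4 was higher in 6 of 6 animals (change 0.97 ± 0.27, adjusted p = 0.205, limma), from 0.30 in animal 2 to 2.90 in animal 6. HLA-DRB genes differ between human and macaque and resemble each other, so the symbol of such a probe is uncertain. LAG3, an inhibitory receptor that binds HLA class II, was not highest in animal 6 (0.15) and had a change of 0.55 ± 0.18 (adjusted p = 0.32, limma).

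Monocyte, granulocyte and dendritic cell markers were, like the HLA class II genes, highest in animal 6. Of 21 listed 10 were tested and 0 passed in limma. Of the 10, 3 were higher at an unadjusted p below 0.05, against 4.47% of all genes tested, and 9 had a change above 0. The median was 0.49 against -0.29 after IgG1. It was 2.21 in animal 6 and between -0.28 and 0.52 in the other animals, and 0.08 without animal 6. In animals 1 and 4 it was -0.28 and -0.09, where the class II and receptor list had 0.16 and 0.30. Animal 6 had the highest change for 8 of these 10 markers and for 9 of the 12 class II and receptor genes, against 13.2% of all genes tested. The summed intensity of the 10 markers ran from 1900 to 4687 before and from 2017 to 8896 after treatment, the last being animal 6. CD14 had a change of 0.57, with 1.90 in animal 6, and S100A9 one of 1.22, with 3.87 in animal 3. CXCL8, a chemokine made by monocytes and other cells, had a change of 1.23 ± 0.29 (adjusted p = 0.116, limma), and CD83, found on mature dendritic cells and activated lymphocytes, one of 1.18 ± 0.32 (adjusted p = 0.19, limma). Both were higher in 6 of 6 and highest in animal 6, at 3.37 and 2.71. The part of such cells in the class II values was not tested. The list median of the granule genes was 0.28 in animal 6 and 0.50 in the fit without it, and animal 6 had the highest change for 1 of the 13, GZMA. The part of such cells in the granule values was not tested.

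The machinery that receives IL-15 had no gene past the threshold. Of 21 listed receptors, kinases and STAT proteins 13 were tested and 0 passed in limma. Of the 13, 2 had an unadjusted p below 0.05, 1 in each direction, against 815 of 8604 over all genes. The median was -0.01. IL2RB and IL2RG, the signalling chains of the IL-15 receptor, had changes of -0.08 and 0.01. STAT5B and STAT6 were lower in 6 of 6 animals, with changes of -0.19 ± 0.11 and -0.34 ± 0.12 (adjusted p = 0.61 and adjusted p = 0.389, limma), and STAT6 had a like change of -0.29 in the controls. STAT3 had a change of 0.46 ± 0.21 (adjusted p = 0.505, limma), and IL15 one of 0.28. Genes known to respond to STAT5 had a median of 0.10 over 18 of 21 listed, with SOCS3 the 1 that passed. OSM, a cytokine gene under STAT5, was higher in 6 of 6 (change 0.93 ± 0.27, adjusted p = 0.228, limma). BCL2 had a change of 0.02, and 0 of 10 tested BCL2 family genes passed or had an unadjusted p below 0.05 in limma. A change above 0 was found for 9 of these 10. PI3K, AKT and mTOR genes had a median of -0.03 over 17 of 27 listed, with 0 past the threshold. Of the 17, 1 had an unadjusted p below 0.05 (RHEB, the GTPase that activates mTOR, at 0.32), against 815 of 8604 over all genes.

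T cell receptor complex and proximal signalling genes had the lowest median change of the function lists, -0.10 over 28 of 39 listed genes, or -0.06 without animal 4. Of the 28, 19 had a change below 0, where 4664 of 8604 did over all genes. Of these 28 genes 0 passed in limma, and 2 had an unadjusted p below 0.05, against 815 of 8604 over all genes. NFATC1, a factor activated by calcium signalling, was lower in 6 of 6 animals (change -0.35 ± 0.15, adjusted p = 0.469, limma), and BCL10, a link from the receptor to NF-kappa-B, was higher in 5 of 6 (0.49 ± 0.21, adjusted p = 0.479, limma). The controls had a median of 0.07 for this list.

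Immediate early genes, which respond to handling as well as to stimulation, had no common direction. Their median change was -0.01 over 18 of 25 listed genes, with 0 past the threshold in limma. Of the 18, 7 had an unadjusted p below 0.05, against 815 of 8604 over all genes. By animal the median ran from -0.26 in animal 2 to 0.53 in animal 6, with 0.50 in animal 1. ZFP36, which destabilises cytokine messages, had a change of 0.76 ± 0.20 (adjusted p = 0.186, limma), and IER3, a stress-inducible gene, one of 1.22 ± 0.41 (adjusted p = 0.34, limma) that ran from -0.24 in animal 2 to 4.42 in animal 6. NR4A1, an early gene of T cell receptor signalling, was lower in 6 of 6 (adjusted p = 0.32, limma) and detected in 4 samples before and 0 after, so no fold is given. Glucocorticoid response genes had a median of 0.31 over 10 of 15 listed, against 0.11 after IgG1, with a change above 0 for 9 of the 10. SGK1, a kinase induced by steroids, had a change of 0.90 ± 0.18 (adjusted p = 0.0585, limma) and 0.33 in the controls, and CXCR4, the receptor for CXCL12, had one of 0.62 ± 0.19 (adjusted p = 0.293, limma). FKBP5, a chaperone of the steroid receptor, had a change of 0.33 after anti-IL-15 and 0.38 after IgG1.

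Further lists included integrin and adhesion genes (median -0.06 over 16 of 24), chemokine receptors (-0.07 over 8 of 20) and death receptor, caspase and NF-kappa-B genes (-0.05 over 15 of 31). Cytosolic ribosomal protein genes had a median of 0.002 over 58 of 76, against 0.12 after IgG1. In the controls 8 of the 58 were higher in 6 of 6 animals, against 1.89% of all genes tested. Unfolded protein and amino acid stress genes had a median of 0.13 over 14 of 23, with a change above 0 for 12 of the 14. No gene of these lists passed in limma. At an unadjusted p below 0.05 there were 2 of the integrin list, 1 of the chemokine receptors and 4 of the death receptor list. There were also 1 of the ribosomal list and 0 of the stress list. Over all genes 815 of 8604 had such a p. Within the death receptor list CASP1, the caspase of inflammasomes, was detected in 0 samples before and 4 after, at least 1.11-fold brighter (adjusted p = 0.293, limma). CASP1 was higher in 5 of 6 animals after anti-IL-15 and in 5 of 6 controls, where its change was 0.38. NFKB1 was lower in 5 of 6 (change -0.38 ± 0.13, adjusted p = 0.376, limma).

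Markers of further cell types had medians on both sides of 0, and 0 of their genes passed in limma. A single one, CD28, had an unadjusted p below 0.05, against 815 of 8604 over all genes. The medians were -0.08 for B cells (5 of 12 tested), -0.22 for platelets (4 of 12), -0.02 for red cells (5 of 11), 0.04 for CD8 T cells (8 of 10) and -0.14 for central memory (4 of 7). Regulatory T cell markers had 2 of 6 tested, with IL2RA at 0.14 and IKZF2 at 0.03, CD4 markers had ZBTB7B at -0.01, and gamma-delta and innate-like markers had ZBTB16 at 0.01. The red cell sum ran opposite ways in animals, with a ratio of 0.301 in animal 1 and 7.16 in animal 2.

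**Figure D3:**
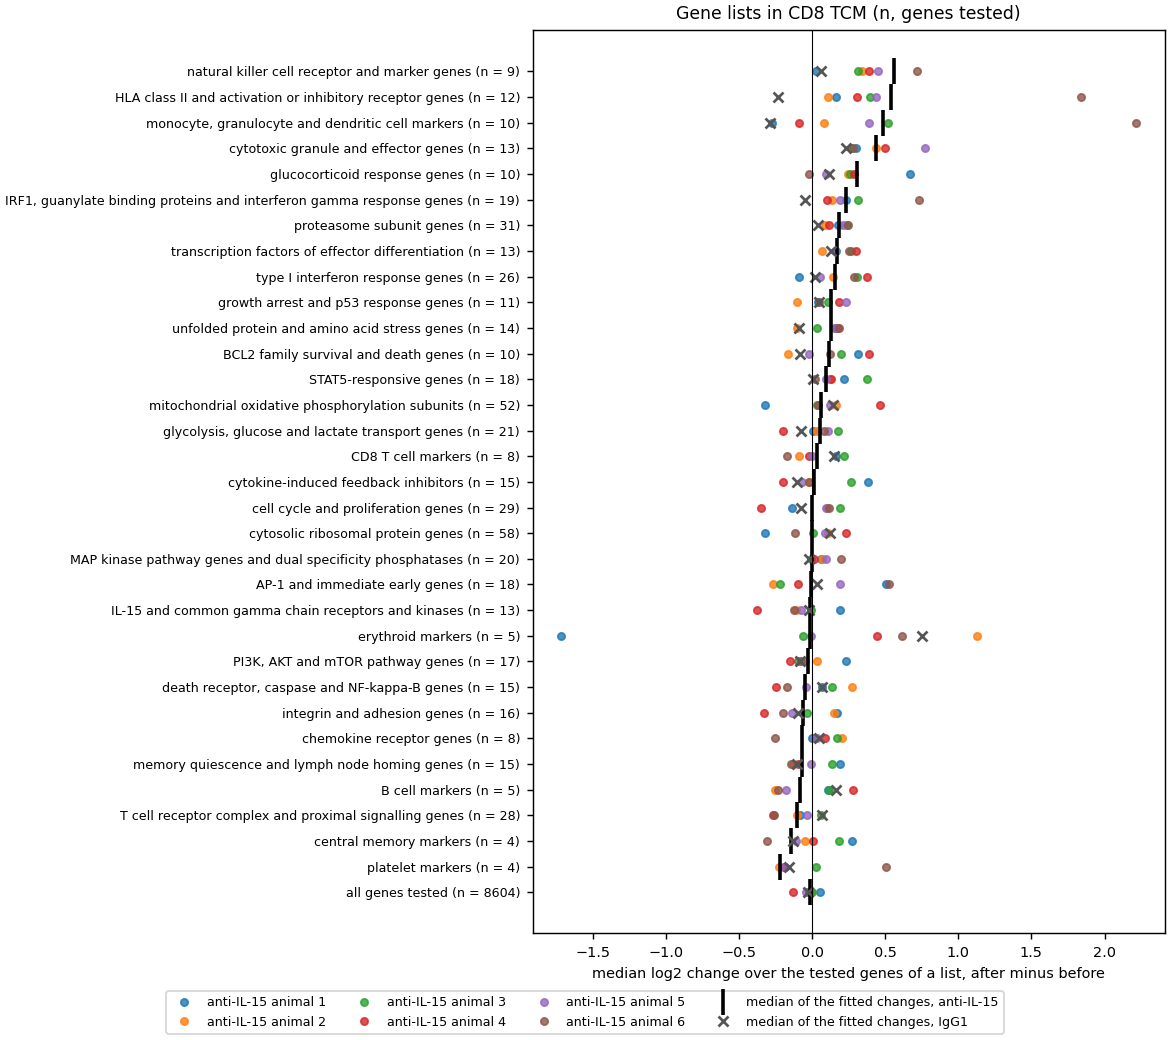
Median log2 change over the tested genes of each list in CD8 TCM, with 1 coloured point per anti-IL-15 animal, a black bar for the fitted changes of the 6 anti-IL-15 animals together and a cross for those of the 6 IgG1 animals. All points lie above 0 for the granule, proteasome, effector transcription factor, STAT5-responsive, IRF1, NK and HLA class II lists. Those of HLA class II and monocyte genes are spread out by animal 6.

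The 15 genes were set beside the other 2 groups. In CD8 TCM of the controls the 13 that rose had changes from -0.07 for GZMK to 0.43 for GNLY. In CD4 TCM of the same anti-IL-15 animals they had changes from 0.16 for NKG7 to 1.80 for IFI27. GADD45A, GADD45B, TENT5C, DUSP5, SLC2A3 and GZMK had changes of 1.01, 0.94, 1.10, 0.83, 0.80 and 0.84 in CD4 TCM. These CD4 values came from a fit of both cell types, not the fit that gave the 15 genes. In it 6 of 9341 genes passed for CD4 TCM after anti-IL-15. BHLHE40, which did not pass in the fit of the CD8 samples alone, was among them (change 1.09 ± 0.22, adjusted p = 0.0487, limma). Its change in CD8 TCM was much the same, 1.06, and its difference between the cell types was -0.03 ± 0.31. NKG7 (difference 0.82 ± 0.22) and KLRD1 (difference 1.03 ± 0.28) were among the 5 genes with the lowest p for a difference between the cell types, together with CXCL8 (1.48), MRRF (-0.84) and TBC1D19 (0.75). None passed: of 9341 genes 0 had an adjusted p below 0.05 (0%) in limma, 345 had an unadjusted one, and the adjusted p of NKG7 was 1.00. KLRD1 was detected in 0 of 24 CD4 samples, so its change of 0.06 in CD4 TCM was a reading near background. For the difference between antibodies in CD8 TCM the 5 lowest p values belonged to ISM1 (difference 1.07), TRAK1 (1.32), IFI27 (1.44), SLC2A3 (1.06) and TBC1D19 (0.91). Of these ISM1, a secreted angiogenesis inhibitor, had a measured change of 0.59 after anti-IL-15, where it was detected in 0 samples before and 5 after (at least 1.22-fold), and of -0.48 after IgG1, and TRAK1, a mitochondrial transport adaptor, 0.81 and -0.52 (adjusted p = 0.578 and adjusted p = 0.597, limma).

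**Figure D4:**
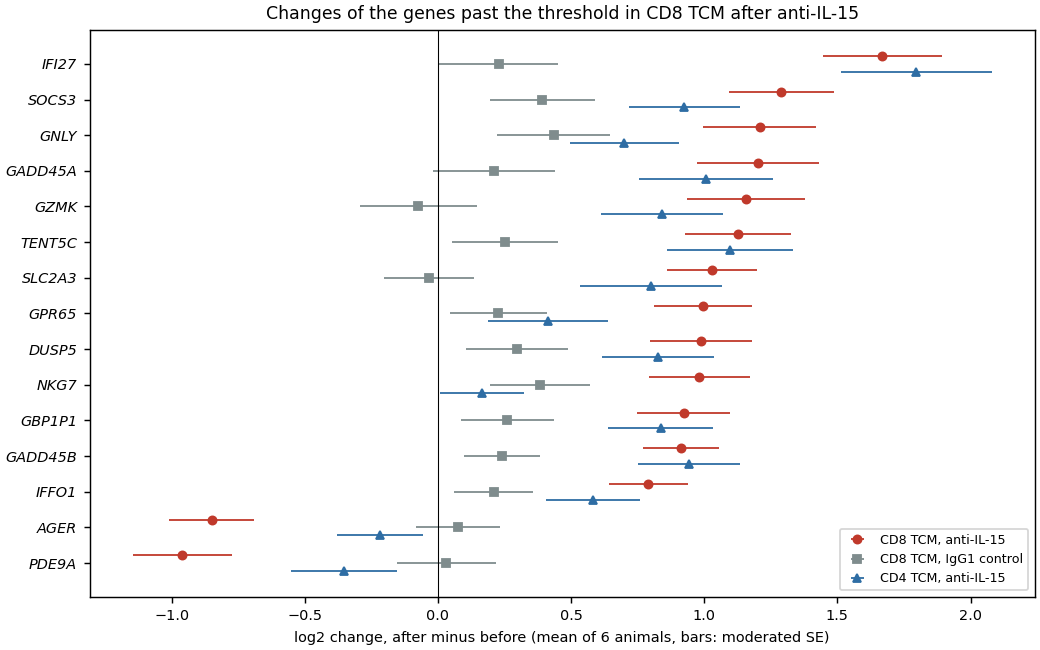
Log2 change of the 15 genes in CD8 TCM after anti-IL-15 (red circles) and after IgG1 (grey squares) and in CD4 TCM after anti-IL-15 (blue triangles); points are fitted means over 6 animals and bars moderated SE. The grey points lie between -0.07 and 0.43, while most blue points of the genes that rose lie closer to the red ones than to 0.

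The number of CD8 TCM sorted differed between samples. It ran from 30000 to 116000 before and from 23000 to 95000 after anti-IL-15, was lower in 5 of 6 animals, and the ratio of geometric means was 0.787 (two-sided exact sign-flip test, p = 0.125). After IgG1 the ratio was 0.790 (exact p = 0.25). With the log2 number of sorted cells as a covariate, 10 genes passed in place of 15. The part of cell number in the changes was not otherwise tested.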

How the data were processed

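Sorted CD8 and CD4 TCM were profiled in 48 samples on 49 arrays; the 2 arrays of 1 control sample (r = 0.988) were averaged. The authors' deposited non-normalized table holds mean bead intensity per probe and, per the file headers, a detection p-value beside it. The deposited value table holds log2 values; 99.991% differ by no more than 0.01 from log2 intensities that were quantile normalized here. The submitters' processing notes name limma, with no version. The genome build is not given in the sources used here, so no coordinates are printed. Samples were grouped by the labels' cell type, antibody, time point and animal.

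Background correction and normalization used the neqc function (offset 16) of limma 3.58.1 under R 4.3.3, with 49 readings of 0 set to missing. Probes with 1 gene symbol (30113 of 47230; 8 had several and 17109 none) and a detection p below 0.05 in at least 6 of the 24 CD8 samples were kept, the brightest per gene. The fit (lmFit, eBayes) had the animal as a block and 1 post-treatment term per antibody. Samples of an animal are pairs by the labels. In the anti-IL-15 animals their deviations correlated with a median r of 0.365 (0.065 to 0.493). The own pair was the best match in 5 of these 6 animals, and not in animal 1 (r = 0.065). CD8 and CD4 were compared in 1 fit of all 48 samples. P values were adjusted by Benjamini-Hochberg, threshold 0.05. Replicates are animals. Median raw intensity of a CD8 array was 88 to 103; the number of arrays limits the precision.

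Named were all genes past the threshold, the 15 largest changes in each direction among genes alike in 6 of 6 animals, the up to 6 members of lowest p and up to 3 defining members of each of 35 lists, and the 5 genes of lowest p for each difference; CISH, BCL2, FCGR3A, IL2RB and IL2RG were added after their values were seen. The members and lists were chosen with earlier results of these data known. Alternatives were the deposited table, other background corrections, filters, probes, moderation, weights, samples, covariates and blocks, and leaving out each animal. Fits were tested on simulated data. Figures were drawn with matplotlib 3.10.9 in Python 3.11.15.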

Additional observations from a re-analysis of the deposited data

Results flagged for a closer look

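Among the 15 genes past the threshold and the sorted cell numbers, 48 groups of 6 values were searched for a value far from the others, and 4 were found; chance marks about 1 in 20 such groups. GBP1P1 was lowest in animal 3 both before (4.90, others 7.00 to 7.91) and after treatment (5.68, others 8.01 to 8.78). Animal 3 still had a change of 0.78 for GBP1P1. NKG7 was highest in animal 1 before treatment (7.21, others 5.27 to 5.68). DUSP5 was lowest in animal 4 after treatment (10.73, others 11.37 to 11.74), on the array with the lowest correlation with the rest.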

How the results depend on the processing

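The count of 15 genes that changed in CD8 TCM after anti-IL-15 moved with most settings. It was 28 with the deposited value table, 29 with normexp at offset 50, 28 with no background correction, 34 with a variance trend and robust moderation, and 36 with both cell types in 1 fit. It was 7 with every probe of a gene, 5 with array weights, 0 with only the 12 CD8 anti-IL-15 samples and 0 with no filter on dim probes, where 636 and 1501 genes had an unadjusted p below 0.05. With no replicate block the count was 0 (500 at an unadjusted p below 0.05), and with the animal as random replicate block it was 1. With 1 animal left out it ran from 1 to 14. Probes detected in all 12 samples gave 17 and the covariate of sorted cells 10. The counts of 0 after IgG1, for the difference between antibodies and for CD8 against CD4 stayed at 0 in every alternative run. Leaving out 1 animal moved the log2 ratio of sorted cells between -0.48 and -0.24. The change of each of the 15 genes kept its sign in every alternative run; NKG7 ran from 0.45 (deposited table) to 1.13 and PDE9A from -1.09 to -0.47, and with the deposited table AGER was at -0.36, SOCS3 at 0.67, GPR65 at 0.65 and IFFO1 at 0.52. The median of proteasome genes was 0.11 with that table and that of interferon genes 0.09. The median of NK genes was 0.23 with the deposited table and 0.04 with no filter, and that of granule genes 0.15 with no filter. BeadChip as a block was not run, as the sources used here name no BeadChip for a sample. The causes were not tested.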
